A study of Mus musculus with 78 samples.

Results

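The ROBO receptors and their SLIT ligands were followed in mouse embryonic stem cells (mESCs) before and after degradation of TRIM28, the corepressor that silences endogenous retroviruses (ERVs). The 7 genes are Robo1, Robo2, Robo3, Robo4, Slit1, Slit2 and Slit3, out of 54446 gene IDs in the RNA-seq tables and 54435 in the TT-SLAM-seq table. They were chosen by gene name, with the rise of Robo2 after 96 h of treatment already known from these data, so the 96 h contrast is given as a description with no test. SLIT proteins are large secreted ligands that bind the extracellular immunoglobulin domains of ROBO receptors and repel growing axons and migrating cells. ROBO1 and ROBO2 are the main receptors at the nervous system midline, ROBO3 is the divergent member that lets commissural axons cross it, and ROBO4 is a shorter member best known from vascular endothelium. Slit2 and Slit3 each hold a microRNA gene for miR-218, which is known to repress Robo1.

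The tagged line is V6.5 mESCs in which FKBP (F36V) is fused to TRIM28, grown up from a single picked colony, and all its groups carry the tag. The ligand dTAG-13 (500 nM) brings about degradation of the tagged protein, and DMSO is its vehicle. Poly(A) RNA-seq has a DMSO group and 4 dTAG-13 groups (2 h, 6 h, 24 h, 96 h) of 3 libraries, all from cells depleted of feeder fibroblasts, and 3 libraries each of untreated, untagged parental V6.5 mESCs grown on feeders and of NPCs in DMSO. The labels give the V6.5 strain for the NPCs but not whether they carry the tag, so genotype may differ in that comparison too. TT-SLAM-seq, which reads RNA labelled for 15 min with 4-thiouridine, has a DMSO group and 3 dTAG-13 groups (2 h, 6 h, 24 h), again of 3 libraries. In both time courses the labels set the DMSO group at the start, not at the hours of the dTAG-13 groups. Time in culture may therefore differ along with dTAG-13 and cannot be told apart from it. The shERV line carries doxycycline (Dox) inducible hairpins against 4 ERV families and was sequenced as total RNA, with 3 libraries for each of DMSO, 24 h dTAG-13 and dTAG-13 plus Dox. The protocol labels list 24 h of Dox before treatment for all 3 shERV groups, whereas the treatment labels name Dox only for the last, so the groups are called here by their treatment labels. ChIP-seq peaks of DMSO and 24 h dTAG-13 cells come from 3 libraries a group for H3K9me3 and H3K27Ac and from 2 a group for MED23, a Mediator subunit, and RNA polymerase II (RNAPII). The DMSO groups of ChIP-seq and of the shERV line are labelled 24 h. The labels do not say whether the libraries of a group came from separate cultures. The authors call the replicates of both time courses and of the shERV line biological. In other experiments they use that term for wells of a plate. Each p-value therefore measures only the spread between these libraries, which may be technical in part.

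Levels are in TPM, an expression unit scaled by transcript length that can be compared between genes. Relative depth of the RNA-seq libraries, from mean coverage, ran from 0.28 to 1.506 of the median library, and the shallowest was replicate 1 of 24 h dTAG-13. Because the tag acts on the protein, the Trim28 mRNA does not check the degradation, and it stood at 622 to 626 TPM in DMSO, 365 to 382 TPM at 24 h and 185 to 204 TPM at 96 h. The stem cell label was met by 9 pluripotent cell markers that were all above 1 TPM in DMSO, with a summed level of 4951 to 5375 TPM. In NPCs 10 of 10 neural markers were called higher than in tagged DMSO mESCs by the rule given below, where 46.6% of all genes were called. They summed to 4156 to 4279 TPM, against 118 to 119 TPM in tagged DMSO, where 5 of the 10 had a mean of at least 1 TPM. In these bulk libraries, fewer cells of a type and less RNA per cell cannot be told apart.

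On the mm10 build, Robo1 (chromosome 16, 72308306 to 73046095, plus strand) and Robo2 (chromosome 16, 73891839 to 74411825, minus strand) are 737.8 kb and 520.0 kb long and lie 845.7 kb apart. Robo4 (chromosome 9, 37401897 to 37415115, plus strand) and Robo3 (chromosome 9, 37415669 to 37433246, minus strand) are 13.2 kb and 17.6 kb long and end 553 bases from each other. Slit1 is on chromosome 19 (41600257 to 41743665, minus strand), Slit2 on chromosome 5 (47983138 to 48307733, plus strand) and Slit3 on chromosome 11 (35121224 to 35708507, plus strand).

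The sequences of miR-218 link both groups of genes and are shown for that reason, from RefSeq (GRCm38.p6) with the seed, bases 2 to 8, in capitals. The 5p arm is identical from Mir218-1 inside Slit2 (chromosome 5, 48223966 to 48223986) and Mir218-2 inside Slit3 (chromosome 11, 35616840 to 35616860), whereas the 3p arms differ in sequence and seed.
miR-218-5p: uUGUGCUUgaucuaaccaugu
miR-218-1-3p: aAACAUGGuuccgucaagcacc
miR-218-2-3p: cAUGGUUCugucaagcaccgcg

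The 7 letters AAGCACA pair with the miR-218-5p seed. They were searched on the sense strand of the longest annotated 3′ UTR of each gene, and 13.8% of 21022 protein-coding genes held them at least 1 time. Robo2 and Slit2 held 2 matches each, Robo1 and Robo3 held 1 each, and Robo4, Slit1 and Slit3 held 0. These UTRs were 3987 bases long in Robo2, 3492 in Slit2, 1733 in Robo1 and 343 in Robo3. They were 1728 bases long in Robo4, 1212 in Slit1 and 365 in Slit3. The share among UTRs of like length was not counted, so no excess of matches is read from these genes. The matches are shown with their neighbouring bases, 30 in all, with the match in capitals.
Robo1 site: ttttggttttaaAAGCACAatcactaaact
Robo2 site 1: ttatttggtgatAAGCACAaatctctactc
Robo2 site 2: cacggcagacccAAGCACAgcttctttcag
Robo3 site: tgtgactcactgAAGCACActgtctacaac
Slit2 site 1: caatactagcagAAGCACAtctacaagagc
Slit2 site 2: taattattagcaAAGCACAtaaattaaagg

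A match followed by A is the longer form of a seed site, and this was so for the Robo1 site and for site 1 of Robo2. The libraries do not measure mature microRNAs. The hairpin genes themselves were above 0 in 4 of 30 RNA-seq libraries for Mir218-1, with a highest value of 0.959 TPM, and in 7 of 30 for Mir218-2, with a highest value of 0.688 TPM. In TT-SLAM-seq neither held more than 2 reads in any of 12 libraries.

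In the DMSO libraries of the time course Robo1 was the most abundant member, and Robo2 and Robo3 were the least abundant. Robo1 stood at 7.6, 7.54 and 7.45 TPM in the 3 DMSO libraries, followed by Slit3 at 2.9 ± 0.13 TPM (SD, n = 3) and Robo4 at 2.04 ± 0.534 TPM. Slit1 (0.879 ± 0.0266 TPM) and Slit2 (0.874 ± 0.132 TPM) had overlapping ranges, as did Robo3 (0.38 ± 0.0592 TPM) and Robo2 (0.234 ± 0.124 TPM). All other neighbours in this order had ranges that did not overlap.

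**Figure D1:**
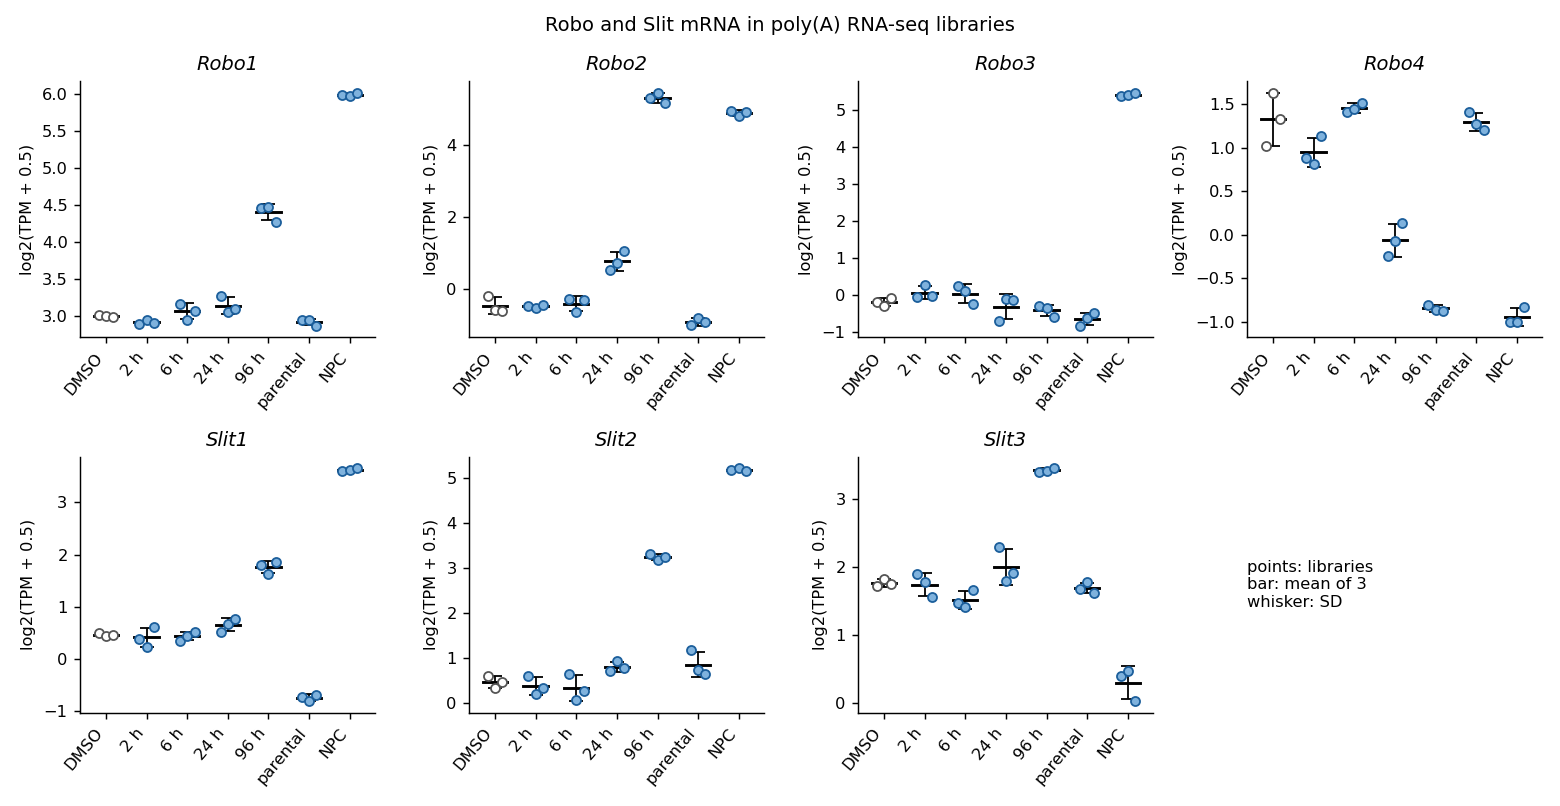
Level of each Robo and Slit gene, as log2(TPM + 0.5), in the 21 poly(A) RNA-seq libraries (points), with the mean and SD of 3 libraries, for DMSO, 4 times of dTAG-13, parental mESCs and NPCs. Robo2 went from a mean of 0.234 TPM in DMSO to 39.3 TPM at 96 h, whereas Robo4 went from 2.04 to 0.0562 TPM.

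No member tested in poly(A) RNA was called within 6 h of dTAG-13. Every gene that reached 1 TPM in 3 or more libraries entered a limma fit on log2(TPM + 0.5), and a gene was called at a Benjamini-Hochberg adjusted p under 0.05 and a change of more than 2-fold. Of the members 6 were tested, since Robo3 was under 1 TPM in all 15 libraries of the time course. Robo3 stood at 0.382, 0.32 and 0.439 TPM in DMSO and at 0.462, 0.708 and 0.489 TPM at 2 h, low values that did not overlap and were not tested. At 2 h 0 of 6 were called, against 0.374% of 17922 genes tested, and at 6 h 0 of 6, against 0.965%. At 2 h 1 of the 6 had an unadjusted p under 0.05, which was Robo4 with a log2 change of -0.38 ± 0.15 (SE, 95% interval -0.71 to -0.05, adjusted p = 0.119), and at 6 h 0 had one. All times share the same 3 DMSO libraries.

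After 24 h Robo2 had risen and Robo4 had fallen, while Robo1 and the 3 ligands were not called. This was 2 of 6 members tested, against 12.2% of all genes. Robo2 stood at 0.377, 0.17 and 0.155 TPM in DMSO and at 0.953, 1.16 and 1.58 TPM at 24 h. All 3 treated libraries were above all 3 controls, and the log2 change was 1.23 ± 0.16 (SE, adjusted p = 8.8e-06). Robo2 passed the minimum of 1 TPM only through libraries of 24 h and 96 h, where it is high. It was also chosen with its 96 h rise known, and the 24 h contrast uses the same DMSO libraries and fit. Its p-value is therefore not independent of the choice. Robo4 stood at 1.52, 2.59 and 2.02 TPM in DMSO and at 0.344, 0.451 and 0.597 TPM at 24 h. The groups did not overlap, and the log2 change was -1.39 ± 0.15 (adjusted p = 2.2e-06). Robo4 in turn passed the minimum only through DMSO, 2 h and 6 h.

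The remaining members had log2 changes between 0.14 and 0.34 at 24 h, beside a median of 0.13 over all genes tested. The closest to the threshold was Slit2, with 1.01, 0.746 and 0.866 TPM in DMSO and 1.13, 1.39 and 1.19 TPM at 24 h (log2 change 0.34, 95% interval 0.02 to 0.66, adjusted p = 0.0558). Its groups did not overlap, but how many of all genes separate in this way was not counted, here or in the other comparisons. For Robo1 the interval was -0.02 to 0.30, for Slit1 -0.07 to 0.44 and for Slit3 -0.04 to 0.50. With libraries centred on their medians, all 24 h changes were lower by 0.29, and Robo2 then changed by 0.94 (adjusted p = 1.1e-04), under the 2-fold line. Without the shallow replicate 1 of 24 h, Robo2 changed by 1.35 and Robo4 by -1.29.

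At 96 h Robo2 had become the most abundant of the 7 genes, the 3 ligands and Robo1 were higher than in DMSO, and Robo4 was near 0. These values describe the contrast known when the genes were chosen and carry no test. Robo2 stood at 39.4, 43.2 and 35.3 TPM, a log2 change of 5.77 and the 5th highest of 17922 genes. Slit2 stood at 9.37, 8.51 and 8.92 TPM (log2 change 2.78), Slit3 at 9.99, 10.1 and 10.4 TPM (1.65), Robo1 at 21.6, 21.9 and 18.9 TPM (1.40) and Slit1 at 2.99, 2.59 and 3.11 TPM (1.30). Every one of these libraries was above all DMSO libraries. Robo4 was at 0.0725, 0.0514 and 0.0446 TPM, a log2 change of -2.17, below every DMSO library, and Robo3 was at 0.313, 0.279 and 0.164 TPM. The share of all genes past the call rule in this contrast was 32.7%, and since the genes were chosen with it known, nothing is read from the 6 of 6 members past it.

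Markers of other cell types moved at the same times. The summed level of 12 fibroblast markers was 39.4 to 42 TPM in DMSO, 57.8 to 62.6 TPM at 24 h and 329 to 353 TPM at 96 h, led by Mmp2 in DMSO and at 24 h and by Col1a1 at 96 h, with Fap at 0 at all 3 times. The 9 pluripotent cell markers summed to 3326 to 3676 TPM at 24 h and 425 to 498 TPM at 96 h. Beside Robo4, the 8 endothelial markers summed to 13.9 to 14.5 TPM in DMSO and 7.78 to 9.47 TPM at 24 h, with Emcn at 0 in both. Esam (log2 change -1.38, adjusted p = 3.9e-07) and Kdr (-1.01, adjusted p = 2.0e-05) were called lower at 24 h. This was 2 of 5 tested, where 12.2% of all genes were called. At 96 h, with Robo4 near 0, the 8 markers summed to 8.97 to 9.87 TPM, with Kdr higher than in DMSO (log2 change 1.04), Tek lower (-2.02) and a median of -0.23 over the 5 tested. Endoderm markers summed to 113 to 127 TPM in DMSO and 382 to 397 TPM at 96 h. Most of the summed rise was Col4a1, a broadly expressed basement membrane collagen (mean 50.8 and 265 TPM), while Lama1 went from 12.7 to 4.64 TPM. By the call rule 5 of 9 endoderm markers tested were higher at 96 h and 1 was lower, where 32.7% of all genes were called. The largest log2 changes among them were those of Sox17 (4.18), Col4a1 (2.37), Gata6 (2.03) and Dab2 (1.99). The part of these cells or genes in the member values was not tested.

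Nascent RNA was read from TT-SLAM-seq. All 7 members lay under the planned minimum of 0.5 FPKM, a unit that is divided here by the length of the whole gene, with a highest value of 0.218 FPKM, so the planned fit tested 0 of them. The FPKM values could be turned back into whole reads, and a test on these reads with limma-voom was added after the data had been seen, for genes with at least 10 reads in at least 3 libraries. Reads are given below after scaling for library depth. Robo3 did not reach the minimum, with at most 6 reads in any library.

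**Figure D2:**
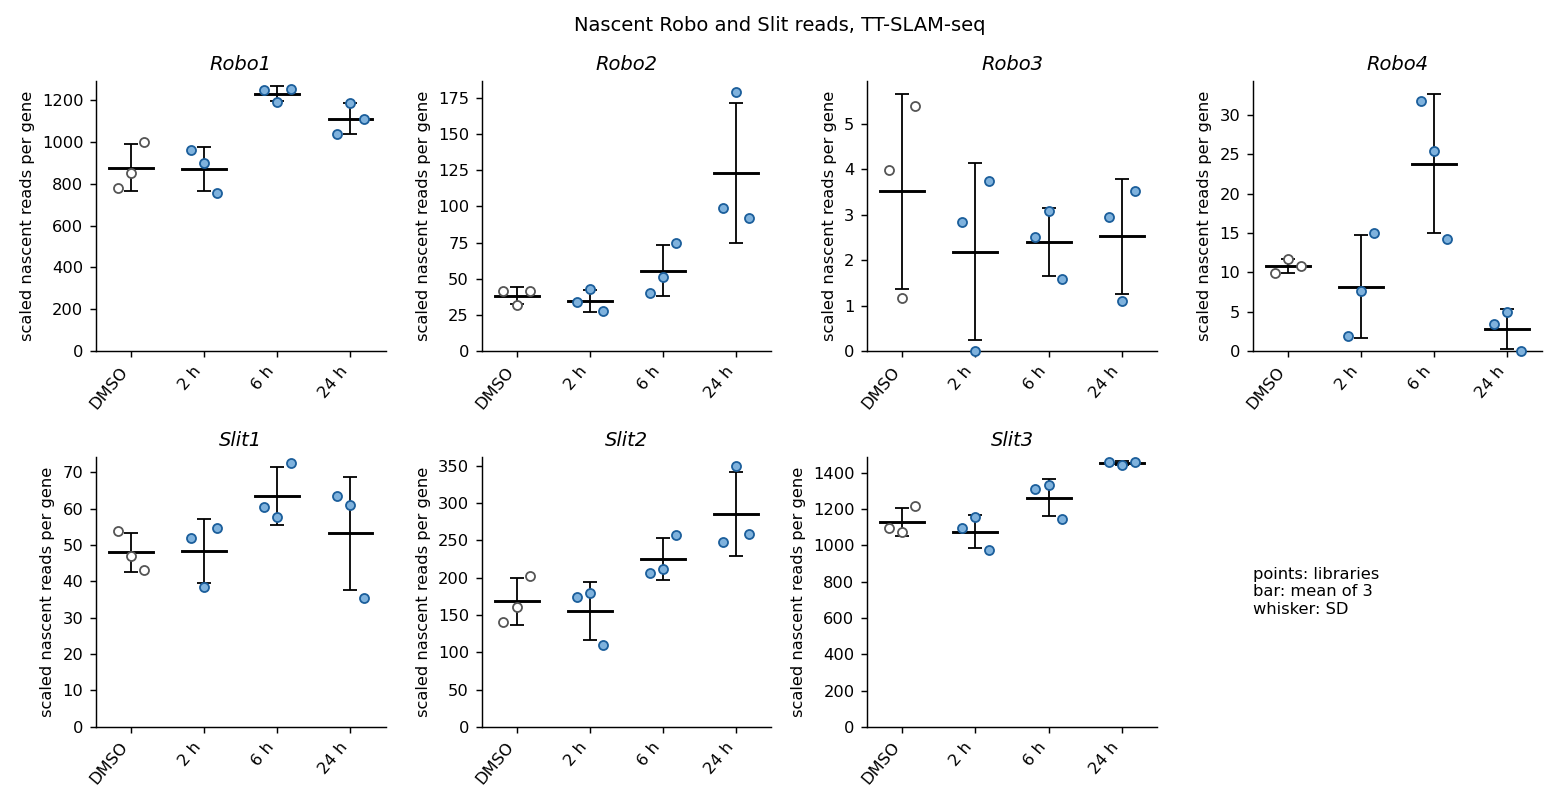
Nascent reads per gene, scaled for library depth, in 12 TT-SLAM-seq libraries (points) with the mean and SD of 3, for DMSO and 3 times of dTAG-13. Robo2 went from a mean of 38.4 scaled reads in DMSO to 123 at 24 h, and Robo4 from 10.8 to 2.81.

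Nascent Robo2 rose at 24 h and was the only member called, 1 of 6 tested, against 12.8% of 19039 genes. It stood at 41.8, 31.7 and 41.7 scaled reads in DMSO (21 to 31 reads as counted) and at 98.8, 179 and 91.7 at 24 h (52 to 323 reads). The groups did not overlap, and the log2 change was 1.70 ± 0.33 (SE, adjusted p = 3.4e-04). Robo2 at 6 h, with 40.2, 51.5 and 74.7 scaled reads, overlapped DMSO and was not called (log2 change 0.51, adjusted p = 0.361).

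By adjusted p alone, 4 of 6 members were higher at 24 h, against 40.6% of all genes with an adjusted p under 0.05 in either direction. Beside Robo2 these were Slit2 (log2 change 0.76 ± 0.19, adjusted p = 0.00329), Slit3 (0.37 ± 0.09, adjusted p = 0.00359) and Robo1 (0.34 ± 0.11, adjusted p = 0.0147). Slit2 stood at 141, 161 and 202 scaled reads in DMSO and 248, 350 and 258 at 24 h, and Slit3 at 1095, 1073 and 1215 in DMSO and 1458, 1441 and 1461 at 24 h. Neither gene overlapped between the groups. Robo1 was already at 1249, 1188 and 1250 scaled reads at 6 h, above its DMSO libraries at 777, 852 and 998 (log2 change 0.49 ± 0.11, adjusted p = 0.00338), and at 1038, 1184 and 1110 at 24 h. At 6 h Robo1 was the only member to pass by adjusted p alone, 1 of 6, against 14.9% of all genes.

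Nascent Robo4 rests on few reads. It had 5, 10 and 8 reads in DMSO, 38, 33 and 18 at 6 h and 7, 9 and 0 at 24 h, and it passed the minimum only through 6 h. The scaled values at 24 h (3.44, 4.99 and 0) lay below those in DMSO (9.96, 11.7 and 10.8), with a log2 change of -1.82 ± 0.74 and an adjusted p of 0.0551. Slit1 changed by 0.26 ± 0.24 at 24 h (95% interval -0.25 to 0.77). At 2 h 0 of 6 members were called, against 2.03% of all genes, and at 6 h 0 of 6, against 1.79%. The 24 h library with the fewest counted reads was replicate 3, and without it Robo2 changed by 1.79 and Slit2 by 0.80.

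In the shERV line Robo1, Robo2, Slit2 and Slit3 were higher with dTAG-13 than in DMSO, by less than 2-fold. Robo2 stood at 7.71, 8 and 8.63 TPM in DMSO and at 13.6, 10.9 and 14.3 TPM with dTAG-13 (log2 change 0.64 ± 0.09, adjusted p = 1.5e-04). Robo1 stood at 6.8, 7.9 and 7.13 TPM in DMSO and at 10.8, 10.6 and 11.9 TPM with dTAG-13 (0.58 ± 0.08, adjusted p = 6.6e-05). Slit2 went from 2.16, 2.57 and 2.73 TPM to 3.46, 3.52 and 3.97 TPM (0.48 ± 0.10, adjusted p = 0.00208), and Slit3 from 1.64, 2.01 and 1.78 TPM to 2.28, 2.59 and 2.42 TPM (0.34 ± 0.11, adjusted p = 0.0159). In these 4 genes no DMSO library reached a dTAG-13 library, and the share of all genes with such separation was not counted. Slit1 changed by 0.06 (95% interval -0.25 to 0.37), and Robo3 and Robo4 were under 1 TPM in all 9 libraries and were not tested. By the full rule 0 of 5 members were called, against 3.82% of 16166 genes, with 4 of the 5 at an unadjusted p under 0.05. By adjusted p alone 4 of 5 passed, against 54.0% of all genes.

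**Figure D3:**
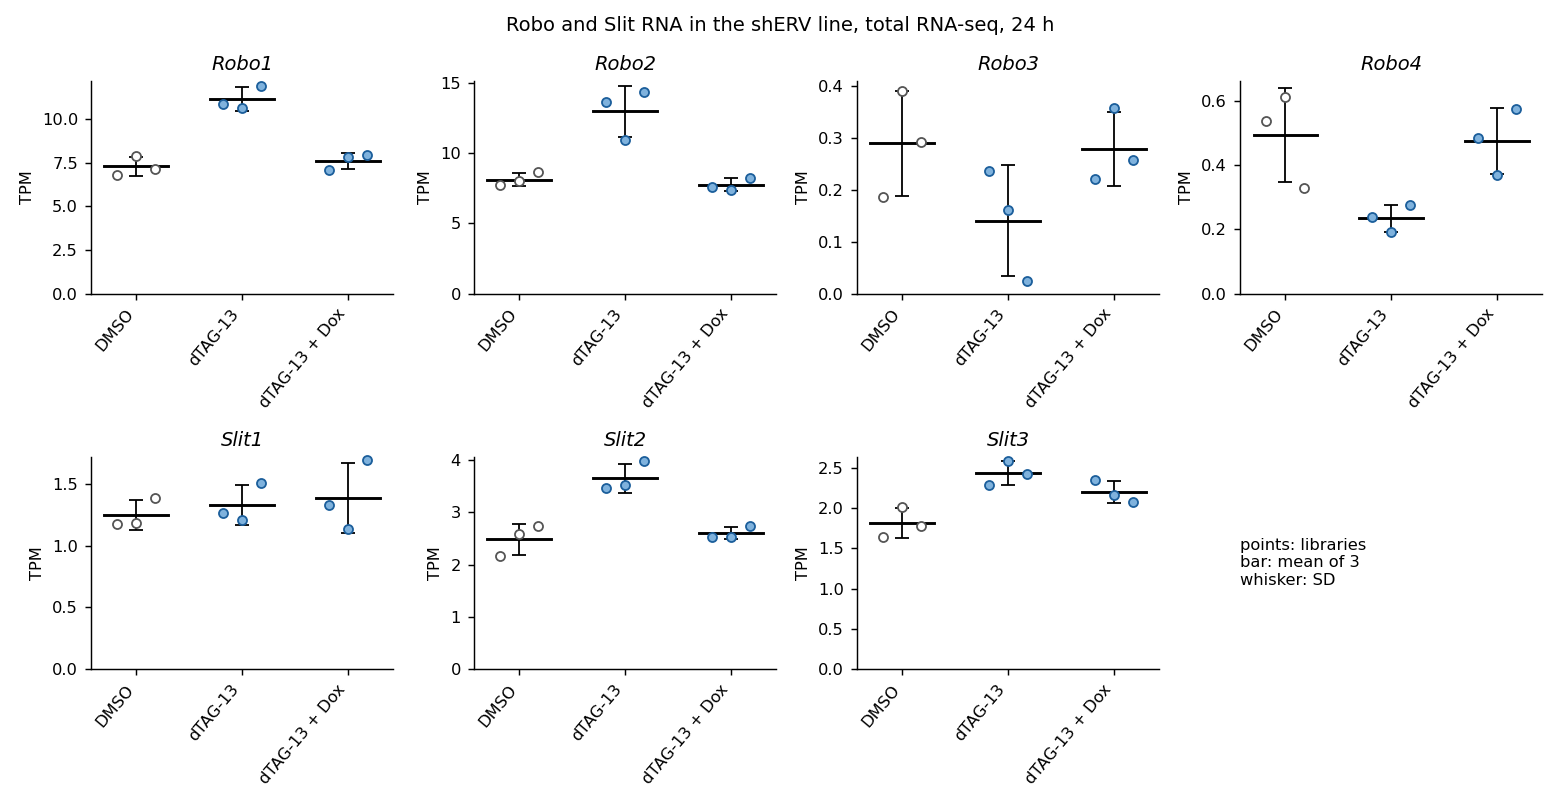
Level in TPM of each Robo and Slit gene in the shERV line, total RNA-seq, for 3 libraries (points) under DMSO, dTAG-13 and dTAG-13 plus Dox, with mean and SD. The Robo1 means were 7.28, 11.1 and 7.61 TPM, and the Robo2 means with DMSO and with Dox were 8.11 and 7.74 TPM.

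Dox induces the hairpins against ERV RNA. In the group labelled dTAG-13 plus Dox, Robo1, Robo2 and Slit2 were lower than in the group labelled dTAG-13. No group is labelled Dox without dTAG-13, so an effect of Dox itself cannot be told apart. Robo2 stood at 7.61, 7.35 and 8.25 TPM (log2 change -0.70 ± 0.09, adjusted p = 9.7e-05), Robo1 at 7.07, 7.8 and 7.95 TPM (-0.52 ± 0.08, adjusted p = 1.9e-04) and Slit2 at 2.53, 2.53 and 2.74 TPM (-0.42 ± 0.10, adjusted p = 0.00571). All 3 genes were below the dTAG-13 libraries in every Dox library, and all 3 overlapped the DMSO libraries. The share of all genes with this pattern was not counted. Slit3 at 2.34, 2.16 and 2.07 TPM overlapped the dTAG-13 group (-0.12, 95% interval -0.35 to 0.11), and Slit1 changed by 0.04. The full rule called 0 of 5, against 3.45% of all genes, with 3 of the 5 at an unadjusted p under 0.05, and 3 of 5 passed by adjusted p alone, against 46.8%. The comparisons with DMSO and with Dox share the 3 dTAG-13 libraries. The fibroblast markers, which feeders would bring, summed to 139 to 149, 137 to 153 and 150 to 157 TPM in the 3 groups, whereas the pluripotent cell markers summed to 2452 to 2828, 1264 to 1289 and 2704 to 2753 TPM.

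The level of Robo2 in DMSO was 8.11 ± 0.466 TPM in the shERV line and 0.234 ± 0.124 TPM in the time course, while Robo1 was at 7.28 and 7.53 TPM. The 2 experiments differ in line, RNA selection, feeders and the labelled time of DMSO, which cannot be told apart. These levels are therefore set side by side with no test. The effect of 24 h of dTAG-13 was compared between them as an interaction of line and treatment. By the full rule 0 of 6 members differed, against 8.72% of 17653 genes, and by adjusted p alone 3 of 6 did, against 51.4%. The effect on Robo1 was larger in the shERV line (log2 difference 0.44 ± 0.11, adjusted p = 0.00503). That on Robo2 was smaller (-0.60 ± 0.22, adjusted p = 0.0366), and for Robo4 the difference was 0.96 ± 0.26 (adjusted p = 0.00751). Robo4 entered this fit only through the time-course DMSO libraries, where it is high, and was under 1 TPM in all shERV libraries, where the added 0.5 shrinks a change, so no direction is drawn from it. For Robo2 the result rests on single libraries, since in 7 of 12 fits with 1 library left out its adjusted p was not under 0.05.

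**Figure D4:**
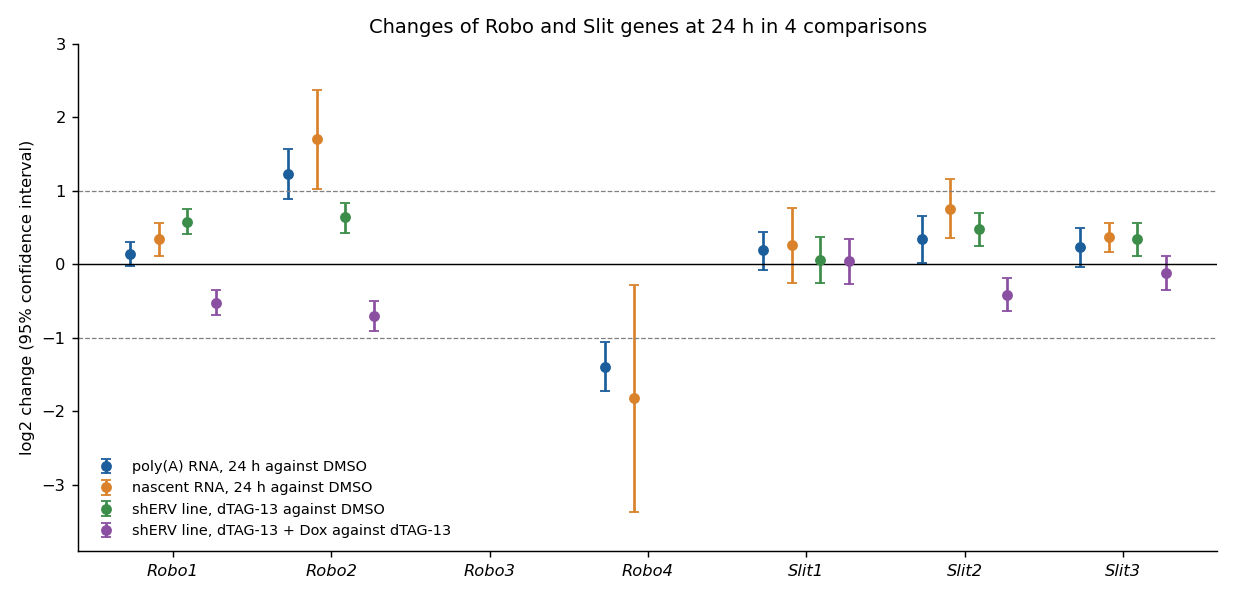
Log2 change of each Robo and Slit gene that was tested at 24 h, with its 95% interval, in poly(A) RNA, in nascent RNA and in the 2 comparisons of the shERV line (dashed lines, 2-fold). Robo2 was higher by 1.23, 1.70 and 0.64 with dTAG-13 against DMSO and lower by -0.70 with Dox added, and Robo3 was not tested in any of the 4.

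In the untagged parental line Slit1 was nearly silent. It stood at 0.102, 0.0683 and 0.121 TPM, below all tagged DMSO libraries at 0.909, 0.86 and 0.867 TPM (log2 change -1.21 ± 0.07, adjusted p = 5.9e-07). Slit1 was the only member called, 1 of 7 tested, against 11.4% of 17458 genes. With a pseudocount of 1 in place of 0.5 the change was -0.78, under the 2-fold line, and with 0.1 Robo2 (-1.29) and Robo3 (-1.03) were called too. Robo2, at 0, 0.0737 and 0.0289 TPM, had a log2 change of -0.45 (adjusted p = 0.00961), and Robo3, at 0.0647, 0.149 and 0.214 TPM, one of -0.46 (adjusted p = 0.00287). Slit1, Robo2 and Robo3 entered this fit only through NPCs. Slit2, at 1.75, 1.16 and 1.05 TPM, changed by 0.39 (adjusted p = 0.0287) and did not overlap DMSO. Robo1 was at 7.23, 7.25 and 6.84 TPM, with a change of -0.08 as deposited and 0.12 after centring, and Robo4 (-0.03) and Slit3 (-0.08) had intervals across 0. The fibroblast marker sum was 129 to 131 TPM in the parental libraries. Pluripotent cell markers summed to 6912 to 7008 TPM there, against 4951 to 5375 TPM in tagged DMSO, with 4 of 9 called higher and 0 lower. The part of either in these values was not tested. Tag, clone, feeders and vehicle differ together between these groups and cannot be told apart.

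NPCs had the highest levels of Robo1, Robo3, Slit1 and Slit2 in the series. Robo1 stood at 63.3, 62.2 and 64.4 TPM, Robo3 at 40.8, 41.5 and 43.4 TPM, Slit2 at 35.5, 36.5 and 34.9 TPM and Robo2 at 30.4, 27.4 and 29.9 TPM. Slit1 followed at 11.6, 11.8 and 12.1 TPM, and these 5 genes did not overlap tagged DMSO mESCs or each other. The log2 changes against tagged DMSO were 5.59 for Robo3, 5.35 for Robo2, 4.72 for Slit2, 3.16 for Slit1 and 2.99 for Robo1, and the highest adjusted p among them was 4.9e-10, for Slit2. Slit3, at 0.813, 0.891 and 0.519 TPM, was lower (-1.47 ± 0.12, adjusted p = 1.2e-06), as was Robo4, at 0, 0 and 0.0645 TPM (-2.27 ± 0.15, adjusted p = 2.2e-07). The rule called 7 of 7 members, against 46.6% of all genes. Robo2, Robo3 and Slit1 passed the minimum through NPCs alone, where they are high. Robo4 and Slit3 passed it only through DMSO and parental mESCs, where they in turn are high. The count of members called is therefore a description only. The neighbours Robo3 and Robo4 thus had opposite signs in NPCs, and Robo3 was above 1 TPM in no other group. The parental, NPC and time course comparisons share the DMSO libraries.

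Across the 21 poly(A) libraries, which fall into 7 groups of 3, Robo1, Robo2, Slit1 and Slit2 had like patterns. Among these 4 genes Pearson r of log2(TPM + 0.5) ran from 0.87 for Robo2 and Slit1 to 0.98 for Robo1 and Slit2. The libraries include NPCs and the 96 h group, whose contrast was known when the genes were chosen. Correlations between members are not given without these groups or beside those of all gene pairs, so they are a description only. Robo3 had 0.87 with Robo1, 0.85 with Slit1, 0.80 with Slit2 and 0.57 with Robo2, while Robo2 and Robo4 had -0.93 and Robo3 and Slit3 had -0.73. Of 19071 genes, Mxd4, Rbm24 and Pcyox1 had the pattern most like that of Robo2 (r = 0.996, 0.994 and 0.994, and 0.993, 0.991 and 0.991 over the 18 libraries without NPCs). Plxna2, which encodes a semaphorin receptor, was among the 3 most like genes of both Robo1 (0.995) and Slit2 (0.993), with a mean of 1.01 TPM in DMSO and 6.80 TPM at 96 h. Robo1 was most like Kitl (0.996), Slit1 most like Sh3bgrl (0.996), Slit3 most like Adipor1 (0.989) and Robo4 most like Noc3l (0.979). For Robo3 the top gene was Mapk10 at 0.995, which fell to 0.776 without NPCs.

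Genes that act with ROBO receptors were described from a list of 32, among them the SRGAP proteins that bind the ROBO cytoplasmic domain, ABL kinases, ENA/VASP proteins, and syndecans and glypican that hold SLIT at the cell surface. At 2 h, 6 h and 24 h 0 of 31 tested were called, against 12.2% of all genes at 24 h, with a median log2 change of 0.20 at 24 h beside 0.13 over all genes. At 96 h 17 of 31 were higher and 0 lower, where 32.7% of all genes were called, with a median of 1.03 beside 0.05, led by Cap2 (log2 change 3.10), Sdc3 (2.80), Flrt3 (2.47) and Gpc1 (2.09). Cap2, an actin-binding protein, was the only one of 30 called in the shERV line, where 3.82% of all genes were with dTAG-13, from a mean of 4.32 TPM in DMSO to 14.1 TPM with dTAG-13 (3.03-fold, adjusted p = 2.6e-07) and 4.83 TPM with Dox (log2 change -1.46, adjusted p = 5.9e-07). In the parental line 5 of 31 were lower, against 11.4% of all genes called, Cap2 (-1.54), Ptk7 (-1.14), Flrt3 (-1.11) and Sos2 (-1.06) among them. In NPCs 13 of 31 were higher and 3 lower, near the 46.6% of all genes called there, with Srgap3 and Nell2, a ROBO3 ligand, each at 4.88 and Prrg4 at -3.67. In nascent RNA 1 of 32 was called at 6 h, Cap2 (1.03, adjusted p = 1.2e-04), and 1 of 32 at 24 h, Sos2 (1.13, adjusted p = 9.9e-08), against 1.79% and 12.8% of all genes.

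Some genes of other axon guidance families were called at 24 h, in both directions, when 12.2% of all genes were called. Of 5 netrin family genes tested, 2 were called higher, the receptor Unc5a (log2 change 1.44) and the ligand Ntn4 (1.13), and the ligand Ntn1 was lower (-1.42, adjusted p = 8.7e-10). In the shERV line Ntn1 was again lower with dTAG-13 (-1.20, adjusted p = 1.1e-06) and higher when Dox was added (1.29, adjusted p = 7.4e-07). Of 12 semaphorin, neuropilin and plexin genes, Sema3f (1.41), Sema3b (1.28) and Plxnd1 (1.15) were higher and Nrp2 was lower (-1.40, adjusted p = 6.7e-10), and the other 8 were not called. At 96 h, with 32.7% of all genes called, 9 of the 12 were higher and 1 lower, with Nrp1 at 4.21, and 2 of the 5 netrin genes were higher, Ntn4 (3.60) and the receptor Unc5b (2.41). In NPCs, with 46.6% of all genes called, 7 of 9 netrin genes were higher, with Dcc, which pairs with ROBO receptors, at 5.11, and Sema3a led the semaphorin group at 5.39.

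Peaks of chromatin marks and factors were read within 2 kb of each gene start. In DMSO MED23 had a peak at 4 of 7 starts in both libraries, at Robo2 (fold enrichment up to 4.69 and 6.47 in the 2 libraries), Robo3 (3.2 and 3.17), Slit2 (7.95 and 6.01) and Slit3 (6.38 and 6.12). After 24 h of dTAG-13 none of the 7 starts had a MED23 peak in either library. Over the genes tested in RNA-seq, the share with a MED23 peak at the start went from 76.5% and 76.6% in DMSO to 27.1% and 24.6%, with 63045 and 58925 peaks called in control cells and 15335 and 14551 in treated cells. The start peaks of the members were not among the 10000 strongest of their libraries. Robo2 and Slit2 had no called MED23 peak at 24 h, the time at which nascent reads of both were higher.

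RNAPII had a peak at the Slit2 start in both DMSO libraries (7.74 and 7.79) and at the Slit3 start in 1 of 2 (4.7), and at no member start after dTAG-13. The share of tested genes with a start peak was 55.9% and 56% in DMSO and 32.1% and 29.4% after treatment. At no start was H3K27Ac called in all libraries of a group. The share of tested genes with an H3K27Ac start peak was 67.7%, 68.7% and 65.8% in DMSO and 45.5%, 70.2% and 46.7% after treatment. H3K27Ac peaks in all numbered 88050, 117475 and 96407 in DMSO and 30259, 117348 and 45662 after treatment, in replicate order. Robo1 has a second start in RefSeq, at 72663149, 354.8 kb into the gene. There H3K27Ac was called in all 6 libraries, with fold enrichments of 11.1, 8.4 and 8.78 in control cells and 4.41, 10.6 and 4.39 in treated cells. MED23 was called there in DMSO alone (8.58 and 9.38), and the RefSeq start was looked up after the peaks had been seen.

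Start sequences of Robo1 (this RefSeq start), Robo2 and Slit2 are shown as examples of starts with a called peak over them and with nascent reads that were higher at 24 h, 250 bases before to 50 after the start, from RefSeq on GRCm38.p6, in the direction of transcription with GC boxes in capitals. GGGCGG and its complement CCGCCC were searched on both strands, and 35.7% of 32851 promoters hold 1 or more. CCAAT and ATTGG are in 37.4% and TATAAA and TTTATA in 13.6%. Slit2 held 3 GC boxes and 1 match to TATAAA or TTTATA, and Robo1 and Robo2 held none of the 3 motifs. MED23 peaks also lay over the start sequences of Robo3 and Slit3, which held 3 and 6 GC boxes and are not shown, and no peak was called at the further RefSeq starts of Robo2. The number of CG dinucleotides was 15 for Robo1, 17 for Robo2 and 30 for Slit2, above that of 65.4%, 68.6% and 88.3% of promoters.
Robo1 (chr16:72662899-72663198, plus strand): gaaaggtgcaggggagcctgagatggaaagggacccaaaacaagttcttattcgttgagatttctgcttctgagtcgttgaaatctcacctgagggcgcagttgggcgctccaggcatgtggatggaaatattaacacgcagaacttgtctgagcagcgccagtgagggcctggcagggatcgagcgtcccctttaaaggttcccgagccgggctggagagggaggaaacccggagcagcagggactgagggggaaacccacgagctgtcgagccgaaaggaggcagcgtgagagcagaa
Robo2 (chr16:74411776-74412075, minus strand): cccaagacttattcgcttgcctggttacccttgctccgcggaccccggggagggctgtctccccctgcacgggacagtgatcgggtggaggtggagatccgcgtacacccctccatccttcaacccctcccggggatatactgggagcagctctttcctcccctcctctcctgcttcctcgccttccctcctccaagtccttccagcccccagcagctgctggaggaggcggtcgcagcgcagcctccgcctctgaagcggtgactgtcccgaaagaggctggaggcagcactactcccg
Slit2 (chr5:47982905-47983204, plus strand): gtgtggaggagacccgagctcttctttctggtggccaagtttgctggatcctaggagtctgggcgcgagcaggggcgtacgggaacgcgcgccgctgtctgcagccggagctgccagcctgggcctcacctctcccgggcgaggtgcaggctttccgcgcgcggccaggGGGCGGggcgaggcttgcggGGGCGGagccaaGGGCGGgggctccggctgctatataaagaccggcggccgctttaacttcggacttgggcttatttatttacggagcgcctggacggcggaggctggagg

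**Figure D5:**
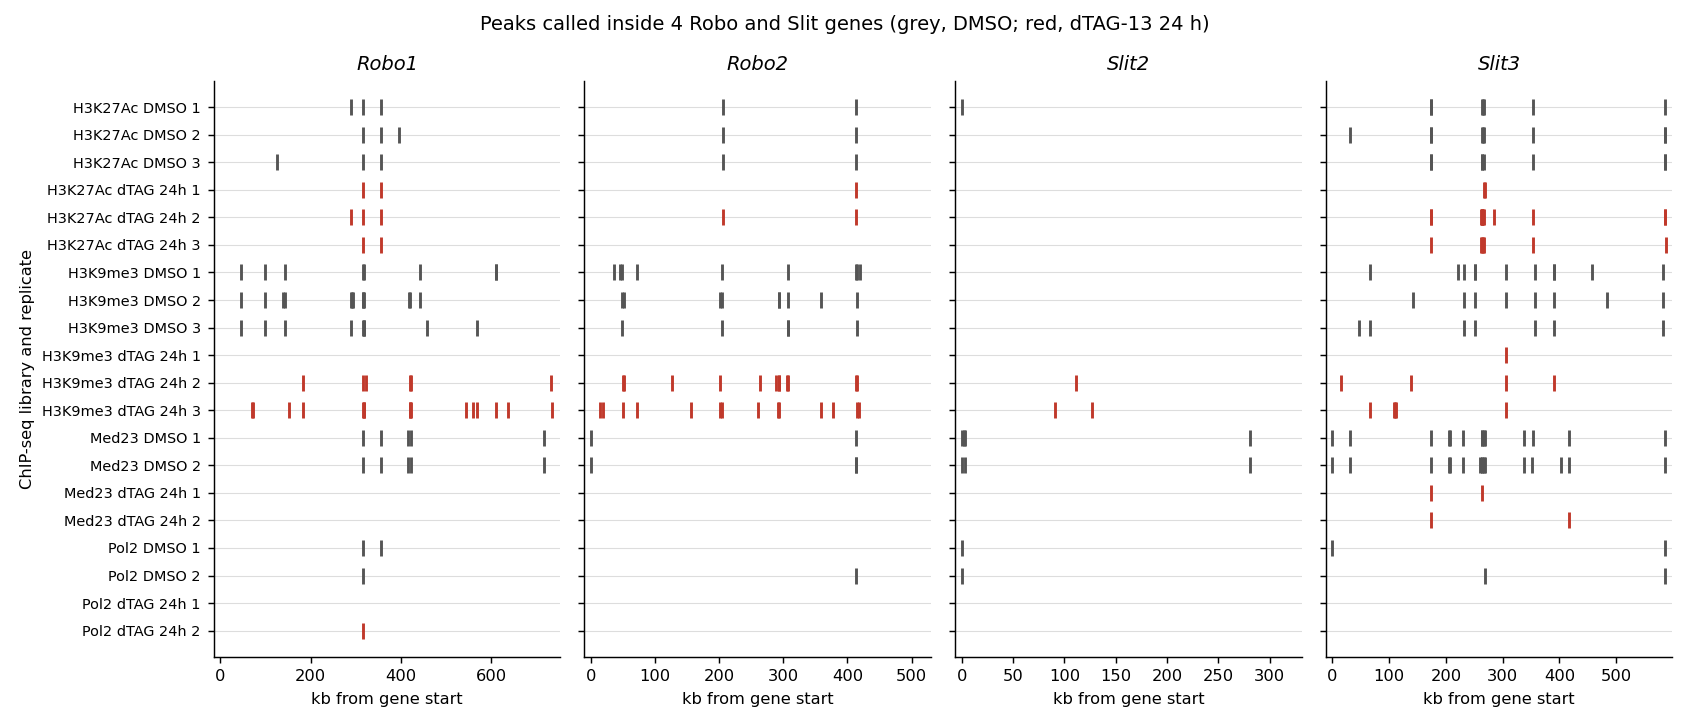
Centres of peaks called inside Robo1, Robo2, Slit2 and Slit3, in kb from the gene start, in each ChIP-seq library (grey, DMSO, and red, dTAG-13 for 24 h). MED23 peaks at the starts of Robo2, Slit2 and Slit3 are seen in DMSO libraries only, and H3K9me3 peaks are scattered through the long Robo1, Robo2 and Slit3 genes.

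Within the genes, 28 MED23 regions were called in both DMSO libraries and in neither dTAG-13 library, 11 of them in Slit3, 5 each in Robo1 and Slit1, 4 in Slit2, 2 in Robo2 and 1 in Robo3. A single MED23 region, in Slit3, was called in all 4 libraries. The share of such lost regions over the whole genome was not counted. MED23 peaks in all fell from 63045 and 58925 in DMSO to 15335 and 14551 after dTAG-13, so nothing particular to these genes is read from the loss. H3K9me3, the mark laid down through TRIM28, covered 2.21, 4.31 and 3.07 kb of Robo1 in control cells and 0, 0.971 and 3.64 kb in treated cells. In Robo2 it covered 2.07, 5.67 and 2.68 kb in control cells and 0, 3.23 and 2.9 kb in treated cells, and in Slit3 3.94, 2.88 and 2.44 kb and 0.15, 1.07 and 2.45 kb. The mean fold enrichment of these peaks ran from 2.43 to 2.94 in the DMSO libraries. Replicate 1 of dTAG-13 had 11474 H3K9me3 peaks in all, against 105690 and 147611 in the others, and the covered lengths of DMSO and dTAG-13 libraries overlapped in all 3 genes. Regions with H3K9me3 in all 3 DMSO libraries and in none after dTAG-13 numbered 5 in Slit3 and 2 in Robo1, and none lay in Robo2. Their share over the whole genome was not counted. Peaks seen only after dTAG-13 also occurred, as 183.2 kb into Robo1 in replicates 2 and 3. No H3K9me3 peak was called in Slit2 in DMSO.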

How the data were processed

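Members and gene lists were chosen with earlier results of these data known. For RNA-seq, the authors mapped reads with STAR 2.7.5a and deposited StringTie 2.0.6 gene tables with TPM per gene (used for levels and tests) and mean coverage, a signal used here only for relative depth. Gene IDs listed more than once were summed. For TT-SLAM-seq, the authors mapped with SLAM-DUNK on GENCODE VM19, kept T-to-C reads and deposited FPKM per gene, where 98.3% to 99.4% of low values per library lay within 0.1 of whole reads, with 6481940 to 24265705 reads per library behind the scaling. For ChIP-seq, the authors deposited MACS2 peaks per library, each with a fold enrichment ratio. All coordinates are mm10.

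Tests on TPM used limma (version 3.58.1, under R 4.3.3) with a trended prior on log2(value + 0.5), and recovered reads with limma-voom after median-ratio scaling, both tested on simulated data. A fold change on log2(value + 0.5) understates that of low genes. Groups follow the sample labels. Named are the members, up to 4 called genes with the largest change per list, and the 3 genes most like each member. Alternatives were other pseudocounts, no filter, centring, smaller fits, a replicate block and leaving out replicates. Hi-C, single-cell and input libraries were not used.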

Additional observations from a re-analysis of the deposited data

Results flagged for a closer look

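The 24 h effect of dTAG-13 differed between time course and shERV line for 3 members, by limma's interaction of line and treatment at an adjusted p under 0.05. This is 3 of 6 tested, at the background of 51.4% of all genes, so it is no result about the members as a group. The differences, shERV line minus time course on the log2 scale, were 0.44 for Robo1 (adjusted p = 0.00503), -0.60 for Robo2 (adjusted p = 0.0366) and 0.96 for Robo4 (adjusted p = 0.00751). With 1 of the 12 libraries left out at a time, Robo1 ran from 0.39 to 0.50 with adjusted p up to 0.0152, Robo4 from 0.81 to 1.11 with adjusted p up to 0.0228, and Robo2 from -0.73 to -0.46 with adjusted p from 0.0129 to 0.094. Robo2 was not under 0.05 in 7 of these 12 fits. Robo4 was under 1 TPM in all shERV libraries and entered the fit only through time-course DMSO. The experiments also differ in RNA selection, feeders and the labelled time of DMSO, so the source of each difference cannot be told apart.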

How the results depend on the processing

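The number of members called depended on the setting as follows, and the cause was not tested. At 24 h in RNA-seq 1 member was called with a pseudocount of 1 and 1 with centred libraries (Robo2 lost, at 0.85 and 0.94). Against the parental line 3 were called with a pseudocount of 0.1 and 0 with a pseudocount of 1 (Slit1 lost, at -0.78), and centring turned Robo1 to 0.12. The interaction called 2 with a pseudocount of 0.1 (Robo2, -1.37, and Robo4, 1.12), 1 with centring (Robo4, 1.08), and 0 to 1 with a library left out, where Robo4 alone moved, without replicate 2 of either shERV group, 24 h replicate 3 or DMSO replicate 1 (1.00, 1.05, 1.06 and 1.11). In nascent reads at 24 h 2 were called with the authors' scaling (Slit2, 1.12), 2 without a filter on low reads and 2 with a replicate block (Robo4, -1.97 and -1.81). For peaks, MED23 in DMSO had 0 member starts among the 10000 strongest peaks, and RefSeq starts gave 1 for H3K27Ac in DMSO and 1 after dTAG-13. The tests on reads and the RefSeq starts were added after the data had been seen.

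No pair of groups had all 3 same-number correlations over 0.1, which does not exclude shared batches. Nascent 2 h and 24 h came nearest, with same-number correlations of 0.10 to 0.17 and a mean of -0.06 for unlike numbers. Under the replicate block RNA-seq calls at 24 h stayed at 2, with Slit2 at 0.34 (adjusted p = 0.0384), and the counts of the other RNA-seq comparisons did not move. Depth limits Robo3 and Robo4 most in nascent RNA, and TPM tables give no read numbers. Values are relative within a library, so a change shared by all genes cannot be seen.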
